A study of Rattus norvegicus with 6 samples.

Results

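The constitutive proteasome genes are those that encode the subunits of the proteasome found in most cells, together with its activators, its inhibitor and the chaperones that assemble it. They were taken as all non-control probes of the array whose accession maps to a rat symbol beginning with Psma, Psmb, Psmc, Psmd, Psme, Psmf or Psmg. The immunoproteasome genes Psmb8, Psmb9, Psmb10, Psme1 and Psme2 were left out. This gave 74 probes of 61657, for 41 genes of the 15284 genes with a named probe. All 41 genes had a probe bright enough to be tested, through 71 of the 74 probes. For 8 further protein-coding symbols of the same pattern, among them Psmd11, Psmg1, Psmg3 and Psmb11, no probe was matched.

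Liver RNA of 6 male Sprague-Dawley (Crl:CD(SD)) rats was measured, 1 single-colour array per rat. The 3 controls received corn oil, and the other 3 rats received 1000 mg/kg/day of o-anthranilic acid, an aromatic amino acid that the body makes from tryptophan. All rats were 5 weeks old when purchased, and the length of dosing is given as 9 weeks in the treatment protocol and as 28 days in the series design. Slide 1 held 5 arrays, with the controls in row 1 and anthranilic acid replicates 1 and 2 in row 2, and on it the effects of row and of dosing cannot be told apart. Anthranilic acid replicate 3 lay on slide 2. Per array, 53.3% to 58.0% of probes stood well above background.

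The proteasome is the protease that breaks down ubiquitin-tagged proteins. Its 20S core is a barrel of alpha rings, which gate the entrance, around beta rings, which hold the cutting sites. The 19S regulatory particle caps the barrel. Its base holds ATPases, which unfold the substrate and push it in, and some non-ATPase subunits. Its lid holds only non-ATPase subunits. Among the non-ATPase subunits are those that bind ubiquitin chains and remove them. In liver the proteasome clears damaged and short-lived proteins. Subunit genes are often regulated together, and the transcription factor Nfe2l1 raises them when proteolysis falls short.

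The proteasome genes differed little between the livers of treated and control rats. None of the 41 genes passed the limma test in either direction (adjusted p under 0.05), beside 0% of the 10257 tested genes in each direction and 0.0329% of tested probes, the latter in either direction. The differences (anthranilic acid minus corn oil, log2 signal) ran from -0.27 for Psmd14 to 0.17 for Psma8, with a median of -0.034 against 0.0085 over all tested genes. Of the 41 genes, 28 (68.3%) differed by less than 0.1 in either direction, against 41.1% of all genes. Of all tested genes, 22.4% differed by more than the largest proteasome difference. At unadjusted p under 0.05 there were 2 proteasome genes, Psme4 and Psmd14, both lower, where 6.16% of all genes were lower at that level. No proteasome gene was higher at that level, against 5.47% of all genes.

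The intervals give the sizes that the arrays allow. The median standard error (SE) of a difference was 0.094 for proteasome genes and 0.12 for all tested genes. For 39 of the 41 genes the 95% interval of the difference lay within 0.5 log2 units of 0, which was so for 58.9% of all genes. The 2 exceptions were Psma8, with an interval from -0.33 to 0.67, and Psmc3ip, with -0.52 to 0.14. None of the tested genes was called, although their differences ran from -5.31 to 5.18, so a missing call says little about the size of a difference here. Proteasome genes were mostly bright. When the tested genes were ranked by brightness and cut into 5 equal classes, 26 of the 41 fell in the brightest, whose median difference over all its 2052 genes was 0.043. Of those 2052 genes, 73.6% had an interval within 0.5 log2 units of 0, and 38.2% had a difference below 0.

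**Figure D1:**
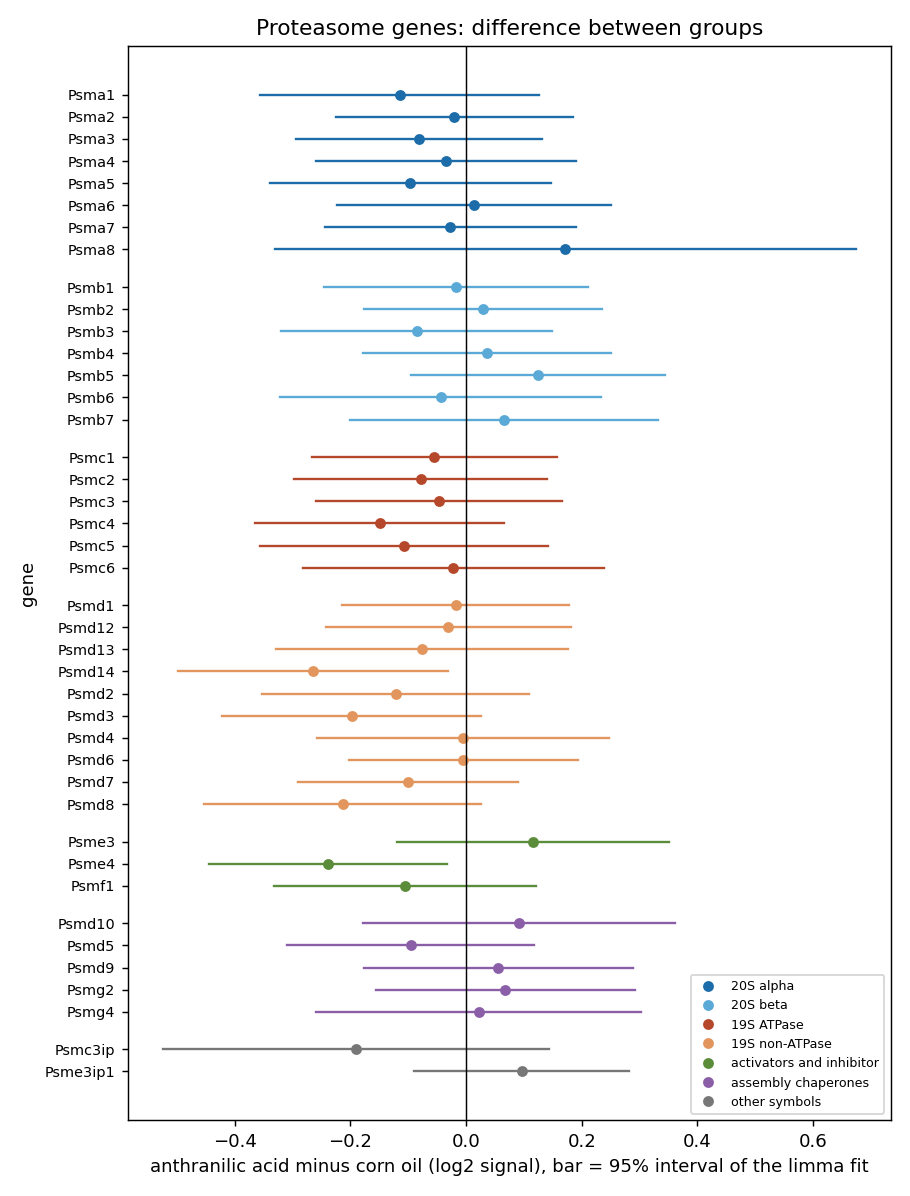
Difference in log2 signal (anthranilic acid minus corn oil) on the horizontal axis for each of the 41 proteasome genes, grouped by class. Points are limma estimates from 3 arrays per group and bars are 95% intervals. All points lie between -0.27 and 0.17, and the bars of Psmd14 and Psme4 end below 0.

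Among the 20S alpha genes, 6 of 8 lay below 0 and the median difference was -0.031. Psma1 had log2 signals, relative to the 75th percentile of each array, of 4.50, 4.63 and 4.65 in corn oil replicates 1 to 3 and of 4.38, 4.44 and 4.61 in anthranilic acid replicates 1 to 3. The groups overlapped through anthranilic acid replicate 3, and the difference was -0.11 (SE 0.099, limma adjusted p = 0.654). Psma5 read 4.70, 4.92 and 4.96 in corn oil and 4.72, 4.77 and 4.80 in anthranilic acid. Here corn oil replicate 1 was the lowest of the 6 arrays, and the difference was -0.096 (SE 0.10, limma adjusted p = 0.712). Psma2, Psma3, Psma4, Psma6 and Psma7 lay between -0.081 and 0.014. Psma8 encodes an alpha subunit known from the testis, where it takes the place of Psma7. Of its 4 probes, 3 were not well above background on any array. The remaining probe, above background on all 6 arrays, read -3.58, -3.51 and -4.03 in corn oil and -3.89, -3.43 and -3.29 in anthranilic acid, so its difference of 0.17 (SE 0.21) lay within the spread of the arrays. The dimmest signal well above background ranged from -4.61 (corn oil replicate 3) to -4.13 (anthranilic acid replicate 3), so this Psma8 probe was near the floor.

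The 20S beta genes were divided about 0, with 3 of 7 below and 4 above and a median of 0.030. The 3 cutting activities of the constitutive core belong to Psmb5 (chymotrypsin-like), Psmb6 (caspase-like) and Psmb7 (trypsin-like). Psmb5 read 5.20, 5.25 and 5.23 in corn oil and 5.23, 5.44 and 5.39 in anthranilic acid, with anthranilic acid replicates 2 and 3 above all controls and replicate 1 among them. Its difference was 0.12 (SE 0.091, limma adjusted p = 0.593, 95% interval -0.095 to 0.34). On the linear scale that is 9.03% higher, with an interval from -6.37% to 27.0%. Psmb6 stood at -0.044 (SE 0.11) and Psmb7 at 0.066 (SE 0.11). For both, anthranilic acid replicate 1 was the lowest of the 6 arrays, at 3.05 for Psmb6 and 3.45 for Psmb7, and the other treated arrays were the highest. The sign of Psmb6 turned without that array (0.063) and with scaling on the array median (0.0075). Psmb3, a structural beta subunit, read 5.49, 5.54 and 5.70 in corn oil and 5.41, 5.56 and 5.50 in anthranilic acid, a difference of -0.085 (SE 0.097, limma adjusted p = 0.741). Psmb1, Psmb2 and Psmb4 lay between -0.018 and 0.036.

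All 6 genes of the 19S ATPases lay below 0, with a median of -0.066 and a range from -0.15 to -0.022. Psmc4 read 2.99, 3.10 and 3.05 in corn oil and 2.87, 2.83 and 3.00 in anthranilic acid. The treated arrays were lower except that anthranilic acid replicate 3 just passed corn oil replicate 1, and the difference was -0.15 (SE 0.089, limma adjusted p = 0.520). Its other probes gave -0.12 and -0.19, and the groups did not overlap at the latter. Psmc5 read 6.16, 6.30 and 6.41 in corn oil and 6.09, 6.20 and 6.26 in anthranilic acid, with overlap and a difference of -0.11 (SE 0.10, limma adjusted p = 0.687). Psmc1, Psmc2, Psmc3 and Psmc6 lay between -0.078 and -0.022.

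The 10 non-ATPase genes of the 19S particle that carry a Psmd symbol also all lay below 0, with a median of -0.088. Outside the symbol rule, the lid gene Sem1 stood at 0.11 (SE 0.086, with overlap) and the ubiquitin receptor gene Adrm1 at -0.037 (SE 0.11). The ATPases and the 10 Psmd genes are called the 19S genes here, without Sem1 and Adrm1. Of them, 16 of 16 had a difference below 0, where 48% of all genes did, and their median was -0.077. These are small differences, and the count depended on how the arrays were scaled: it was 10 of 16 with scaling on the array median, which moved the median of all tested genes to 0.060. It was 11 of 16 without anthranilic acid replicate 1 (median -0.043), 12 of 16 without corn oil replicate 2 and 16 of 16 within slide 1 (median -0.10). It was 11 of 16 with scaling on the proteasome median of each array. With normexp background correction and without corn oil replicate 3 it was 13 of 16, and without anthranilic acid replicate 2 it was 15 of 16. The remaining alternatives gave 16 of 16. The 20S core, alpha and beta genes together, had 9 of 15 genes below 0 and a median of -0.020, which was 0.051 without anthranilic acid replicate 1, 0.0027 without corn oil replicate 2 and -0.035 within slide 1. No test was made of the difference between the 19S and 20S genes.

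The lowest values of the 19S particle belonged to lid genes. Psmd14 encodes the metalloprotease that cuts ubiquitin chains off the substrate. It read 1.52, 1.47 and 1.33 in corn oil and 1.07, 1.23 and 1.23 in anthranilic acid, so that all treated arrays lay below all controls. The difference was -0.27 (SE 0.096, 95% interval -0.50 to -0.032, limma adjusted p = 0.383), a change of -16.8% on the linear scale. Psmd8, a structural lid subunit, read 3.97, 3.98 and 4.01 in corn oil and 3.62, 3.81 and 3.90 in anthranilic acid. The controls were tight and every treated array was lower, with a difference of -0.21 (SE 0.099, 95% interval -0.45 to 0.027, limma adjusted p = 0.439). Psmd3, another lid subunit, read 2.10, 2.14 and 2.13 in corn oil and 1.79, 1.96 and 2.02 in anthranilic acid. Its groups did not overlap either, with a difference of -0.20 (SE 0.093, limma adjusted p = 0.441). The second Psmd3 probe gave -0.21 (SE 0.087), also without overlap. Psmd7 of the lid stood at -0.10 (SE 0.078), with the highest treated array at 3.19 and the lowest control at 3.21. Its other probes gave -0.064 and -0.10, and at both of them the groups overlapped.

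By the brightest probe of each gene, groups that did not overlap were therefore found at 4 lid genes and at Psme4. These were 5 of 41 proteasome genes with all treated arrays lower, against 9.12% of all genes. The count was 1 of 41 with scaling on the array median, where 5.54% of all genes were lower without overlap. It was 13 of 41 with quantile normalisation (9.79% of all genes). Without corn oil replicate 1 it was 12, without anthranilic acid replicate 2 it was 9 and without replicate 3 it was 10, against 12.9%, 13.3% and 14.9% of all genes. The other tested lid genes of the symbol rule, Psmd6, Psmd12 and Psmd13, lay between -0.077 and -0.0045, and Sem1, outside the rule, stood at 0.11. Of the non-ATPase base, the scaffold genes Psmd1 and Psmd2 stood at -0.017 and -0.12 and the ubiquitin receptor gene Psmd4 at -0.0048. Dimmer probes of Psmd6 (-0.055) and Psmd2 (-0.12) had all treated arrays below all controls, so the genes without overlap depended on the probe used.

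**Figure D2:**
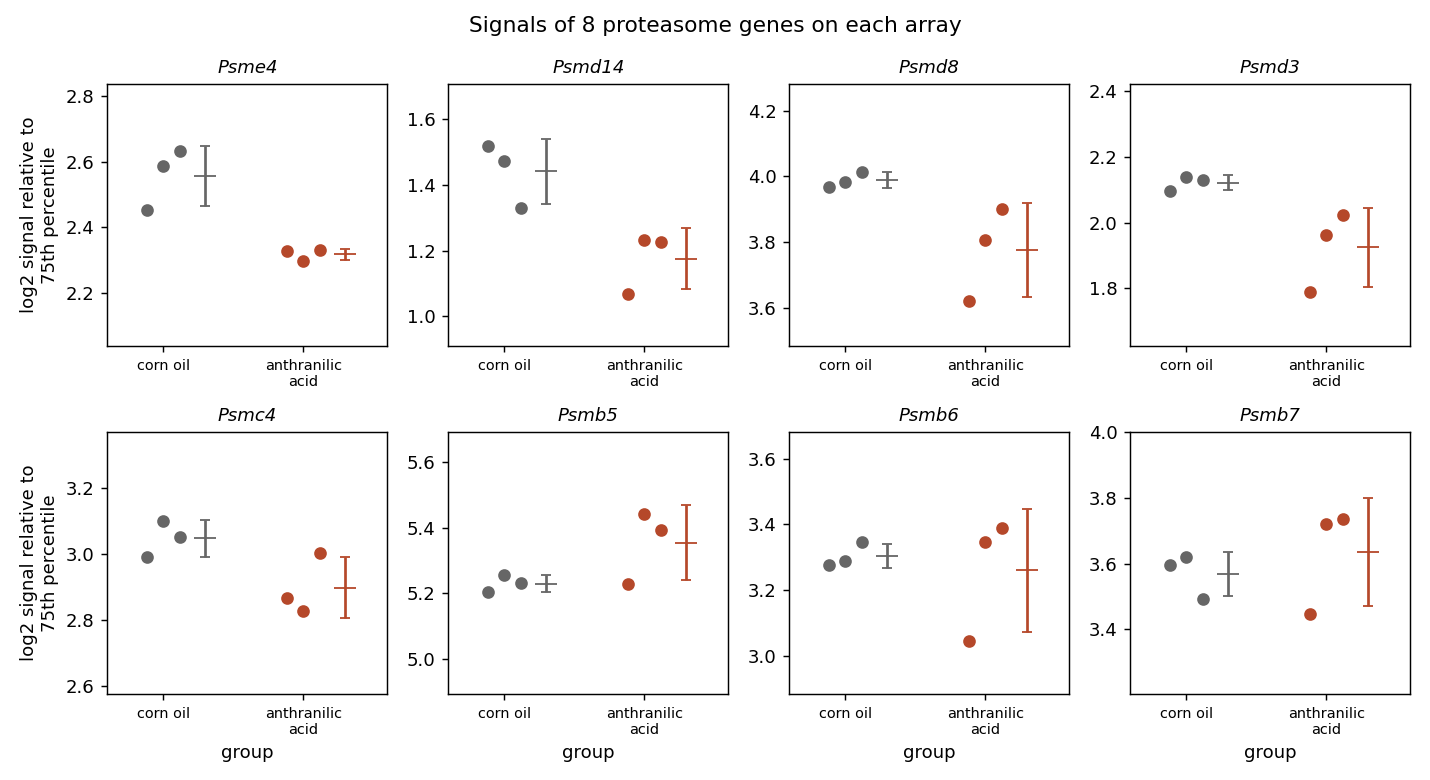
Log2 signal relative to the 75th percentile of each array for 8 proteasome genes, with 1 point per array (replicates 1 to 3 from left to right), the mean and its SD beside them, and an axis span of 0.8 in each panel. All treated points of Psme4, Psmd14, Psmd8 and Psmd3 lie below all control points, and Psmb6 and Psmb7 have 1 low treated point, replicate 1.

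Other caps can sit on the 20S core in place of the 19S particle. Psme4 encodes PA200, an activator that favours degradation without ubiquitin. Its brightest probe read 2.45, 2.59 and 2.63 in corn oil and 2.33, 2.30 and 2.33 in anthranilic acid. The treated arrays lay close together and below all controls, with a difference of -0.24 (SE 0.085, 95% interval -0.44 to -0.032, limma adjusted p = 0.378), a change of -15.2% on the linear scale. A second probe read 0.47, 0.57 and 0.52 in corn oil and 0.25, 0.24 and 0.22 in anthranilic acid. This had the smallest p of the proteasome probes, at -0.28 (SE 0.077, limma adjusted p = 0.302), and again did not overlap. Its remaining probe gave 0.046 (SE 0.16), with corn oil replicate 1 at 1.77 below all other arrays. Psme3 encodes the nuclear activator PA28 gamma, and read 3.21, 3.20 and 3.08 in corn oil and 3.28, 3.16 and 3.40 in anthranilic acid. Its groups overlapped, with a difference of 0.12 (SE 0.097, limma adjusted p = 0.641) and 0.10 at its second probe. Psmf1, the gene of the inhibitor PI31, stood at -0.11 (SE 0.094), and its other probes at -0.099 and -0.11.

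Sequences upstream of the start site are shown for the genes with the lowest differences that have an entry in the RefSeq promoter table (GRCr8 build), Psme4, Psmd8 and Psmd3, and for Psmb5, whose difference had the opposite sign. The capitals mark the letters TGACNNNGC on either strand, the core of the element bound by Nfe2l1 and the related factor Nfe2l2 with their Maf partners. Each line gives the 250 bases before the start site, 5′ to 3′ on the gene's strand, and these windows lie at chr14:108706393-108706642 (plus strand), chr1:93608690-93608939 (minus), chr10:84139688-84139937 (plus) and chr15:32047380-32047629 (minus), in the same order.
Psme4: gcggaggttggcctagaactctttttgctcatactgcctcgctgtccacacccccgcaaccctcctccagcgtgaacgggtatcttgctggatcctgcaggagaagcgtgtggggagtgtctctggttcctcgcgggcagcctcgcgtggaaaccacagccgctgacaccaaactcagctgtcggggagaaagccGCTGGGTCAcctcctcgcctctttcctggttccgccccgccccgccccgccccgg
Psmd8: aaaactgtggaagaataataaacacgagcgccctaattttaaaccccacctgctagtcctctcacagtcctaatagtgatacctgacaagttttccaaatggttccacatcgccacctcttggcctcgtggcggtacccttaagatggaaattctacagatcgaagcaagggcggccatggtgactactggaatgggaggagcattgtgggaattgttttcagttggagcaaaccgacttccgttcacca
Psmd3: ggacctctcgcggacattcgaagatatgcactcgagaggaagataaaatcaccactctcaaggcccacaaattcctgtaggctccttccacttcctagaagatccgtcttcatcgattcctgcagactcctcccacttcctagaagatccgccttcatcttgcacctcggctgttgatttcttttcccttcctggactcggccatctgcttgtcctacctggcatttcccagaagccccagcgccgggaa
Psmb5: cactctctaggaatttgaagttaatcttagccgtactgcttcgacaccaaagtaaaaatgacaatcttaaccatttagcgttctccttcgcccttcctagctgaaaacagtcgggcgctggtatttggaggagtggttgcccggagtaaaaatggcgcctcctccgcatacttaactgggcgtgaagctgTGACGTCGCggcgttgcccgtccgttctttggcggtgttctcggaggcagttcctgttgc
The match in Psme4 lies on the opposite strand and begins 55 bases before the start site, and that in Psmb5 lies on the gene's strand and begins 60 bases before it. The windows of Psmd8 and Psmd3 hold no such letters. Of the 37 proteasome genes with an entry, 7 (18.9%) held TGACNNNGC in this window, against 10.1% of the 33469 promoters in the table. They were Psma3, Psmb2, Psmb5, Psmb6, Psmd1, Psmd9 and Psme4, and their differences had both signs. The letters CCAAT, a box bound by NF-Y, were found on either strand in 20 of the 37 (54.1%), against 34% of all promoters, but in none of the windows printed here. The shares of all promoters were taken over every entry, not matched to the proteasome genes in expression or base composition. A match is a description of the sequence and not evidence of binding.

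The genes of the assembly chaperones lay mostly above 0, 4 of 5, with a median of 0.056. Psmd5 helps to assemble the 19S base. It read 1.49, 1.37 and 1.44 in corn oil and 1.25, 1.42 and 1.35 in anthranilic acid, with overlap and a difference of -0.096 (SE 0.088, limma adjusted p = 0.676). Psmd10 (gankyrin), a chaperone of the same step that is also known as a liver oncoprotein, read 1.89, 1.94 and 1.67 in corn oil and 1.80, 1.99 and 1.98 in anthranilic acid. Corn oil replicate 3 was its lowest array, and the difference was 0.092 (SE 0.11, limma adjusted p = 0.758). Psmd9, Psmg2 and Psmg4 lay between 0.022 and 0.068.

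The symbol rule also caught 2 genes that do not encode proteasome subunits. Psmc3ip encodes a recombination factor of meiosis that was named for its binding to Psmc3. It read -1.11, -1.38 and -1.59 in corn oil and -1.64, -1.51 and -1.50 in anthranilic acid, a difference of -0.19 (SE 0.14, limma adjusted p = 0.591) within the spread of the controls. Psme3ip1 encodes a partner of PA28 gamma. It read 0.64, 0.72 and 0.70 in corn oil and 0.76, 0.81 and 0.77 in anthranilic acid, a difference of 0.096 (SE 0.077, limma adjusted p = 0.626). It was the single one of the 41 genes with all treated arrays above all controls, against 10.7% of all genes. Without anthranilic acid replicate 1 there were 7 such genes (17.6% of all genes), and 3 each with normexp background correction (10.5%) and without anthranilic acid replicate 2 (16.3%). There were 2 without corn oil replicate 2 (14.4%) and 4 with scaling on the proteasome median of each array (11.7%). Without both of these genes the proteasome median remained -0.034, with 28 of 39 genes below 0.

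By array, the treated group was not uniform. The median deviation of the 41 genes from their corn oil means was -0.040, 0.034 and 0.0075 in corn oil replicates 1 to 3. In the treated rats it was -0.13, -0.011 and 0.019, whereas for all tested genes it lay between -0.0025 and 0.020 on all 6 arrays. For the genes in the brightest of the 5 brightness classes, which held 26 of the 41, it was -0.0011, 0.066 and 0.063 in the treated rats. In anthranilic acid replicate 1, 37 of 41 genes were below their corn oil mean, against 31 of 41 in corn oil replicate 1 and 5115 of 10257 tested genes in the same treated array. Anthranilic acid replicate 1 was the lowest of the 6 arrays for 25 of the 41 genes (61.0%), against 1538 of 10256 tested genes, and the highest for 0 of 41. Without it the median difference of the proteasome genes was 0.015, and without anthranilic acid replicate 3, which is also the value within slide 1, it was -0.067. Without corn oil replicate 1 it was -0.065, without corn oil replicate 2 it was -0.0093 and without anthranilic acid replicate 2 it was -0.065.

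The classes followed this pattern to different extents. For the 20S core the median deviation was -0.13 in anthranilic acid replicate 1, where 15 of 15 genes were below their corn oil mean, but 0.070 and 0.039 in replicates 2 and 3, where 4 and 5 of 15 were. For the 19S genes it was -0.15, -0.085 and -0.00068, with 16, 13 and 8 of 16 genes below. Among the controls the 19S medians were -0.058, 0.037 and 0.014, with 13, 1 and 5 of 16 genes below, so corn oil replicate 1 had as many genes below as anthranilic acid replicate 2. For the 19S ATPases alone, corn oil replicate 1 (-0.095) lay below anthranilic acid replicate 2 (-0.080). The assembly chaperones had medians of -0.035, 0.021 and 0.086, and that of replicate 1 lay within the range of the corn oil arrays, -0.064 to 0.058. After each array was rescaled to the median of its 41 proteasome genes, an alternative chosen after the data were seen, Psmd14 stood at -0.23, Psme4 at -0.20, Psmd8 at -0.18 and Psmb5 at 0.16. No gene passed on that scale, with a smallest limma adjusted p of 0.590 among the 41.

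**Figure D3:**
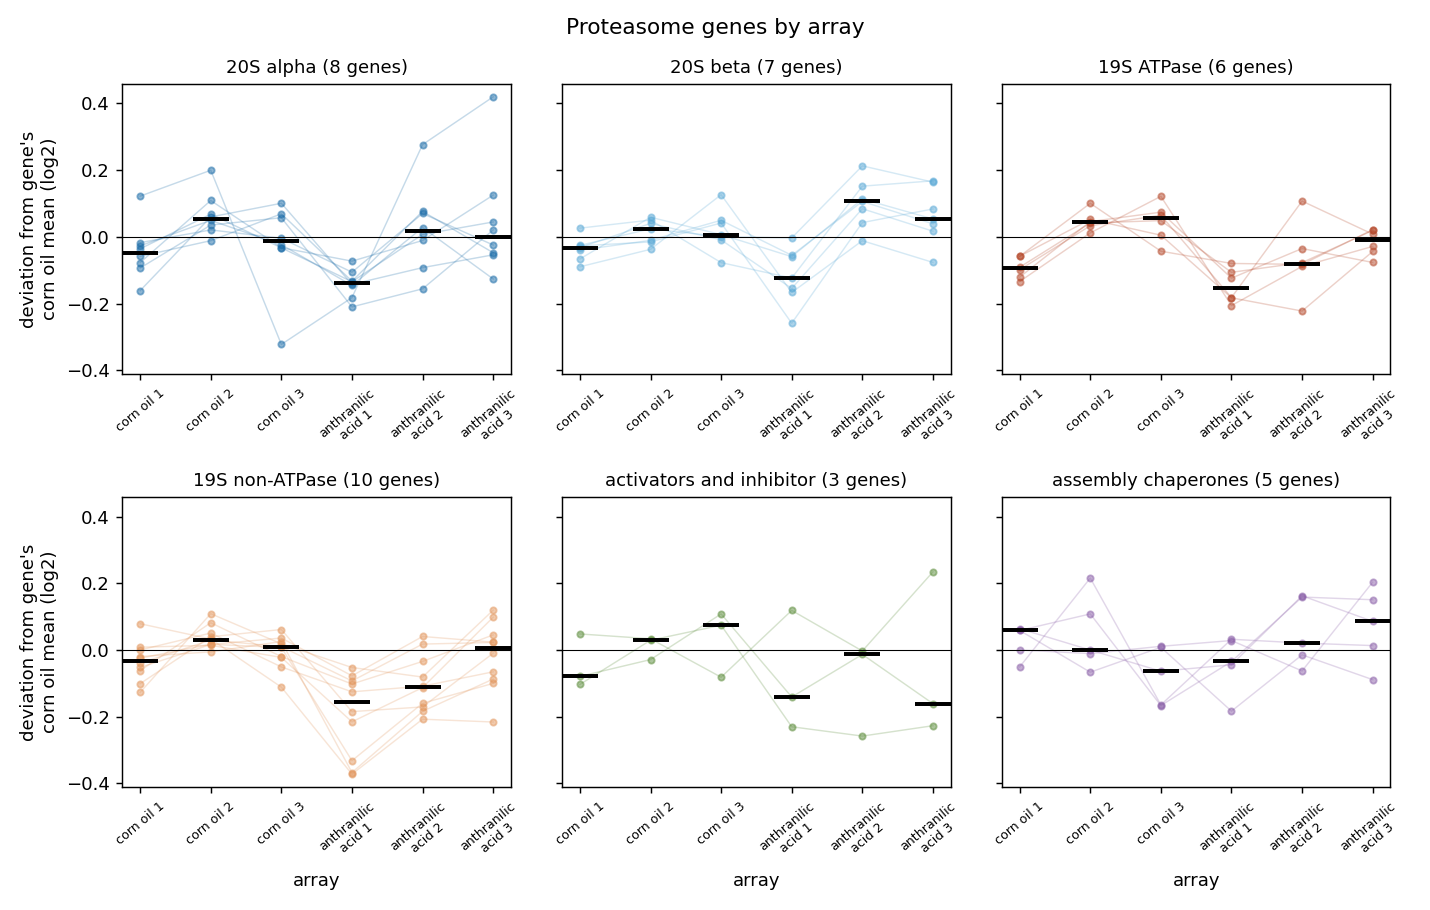
Deviation of each gene from its corn oil mean (log2) on the vertical axis, for the 6 arrays on the horizontal axis, in 6 classes of proteasome genes. Thin lines join the points of a gene and black bars are class medians. The bars of anthranilic acid replicate 1 lie lowest in both 20S and both 19S panels, at -0.12 to -0.16.

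Where a gene had several probes, they mostly gave the same sign. Of 22 genes with more than 1 tested probe, 17 had all probes on one side of 0, 14 lower and 3 higher. The widest gap was that of Psme4, at 0.33 log2 units, and none exceeded 1. The Psmc6 probes gave -0.022, -0.12 and 0.12, the last with an SE of 0.25. Over all 71 probes, 51 lay below 0 and 4 were at unadjusted p under 0.05, all lower, namely both of the lower Psme4 probes, the Psmd14 probe and 1 Psmd3 probe, against 6.52% of all probes. The rat genome holds copies named after some subunits, such as Psmb3l1, Psmb3l2 and Psmb6l1. Whether probes also bind transcripts of these or of pseudogene copies was not tested.

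**Figure D4:**
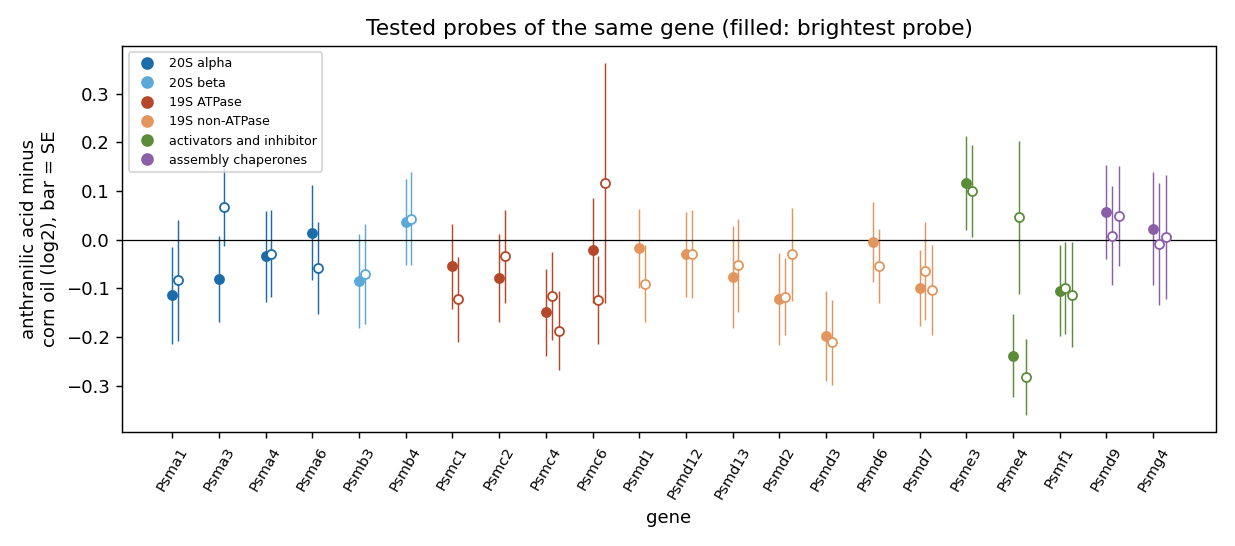
Difference in log2 signal (anthranilic acid minus corn oil) for each tested probe of the 22 proteasome genes with more than 1, with the SE of the limma fit as bars. Filled points are the brightest probe of a gene and open points the others. For 17 of the 22 genes all points lie on one side of 0, and Psme4 has the widest gap.

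Of 28 other genes of the ubiquitin-proteasome pathway, 22 were measured, and none passed by limma, beside 2 lower and 1 higher at unadjusted p under 0.05 (6.16% and 5.47% of all genes). The groups did not overlap for 5 lower and 4 higher of the 22, against 9.12% and 10.7% of all genes. Their median difference was -0.049. Zfand2a, which encodes a stress-induced protein that associates with the 19S particle, read 3.56, 3.58 and 2.61 in corn oil and 2.58, 2.36 and 2.51 in anthranilic acid. Corn oil replicate 3 lay close to the treated arrays, and the difference was -0.77 (SE 0.27, limma adjusted p = 0.371). Ubb, one of the polyubiquitin genes, read 8.58, 8.61 and 8.76 in corn oil and 8.28, 8.49 and 8.34 in anthranilic acid, without overlap, a difference of -0.28 (SE 0.10, limma adjusted p = 0.372). Akirin2, whose product brings proteasomes into the nucleus, read 0.87, 0.85 and 0.72 in corn oil and 0.92, 1.20 and 1.12 in anthranilic acid, also without overlap, at 0.27 (SE 0.11, limma adjusted p = 0.397). The genes for the regulator Nfe2l1, the core maturation factor Pomp and the 19S ubiquitin receptor Adrm1 stood at -0.060 (SE 0.19), 0.0082 (SE 0.095) and -0.037 (SE 0.11). The 5 immunoproteasome genes that the rule left out all lay above 0, from 0.058 for Psme1 to 0.37 for Psmb10 (SE 0.24), none of them called and all with overlap.

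The livers were checked against cell type markers. All 8 hepatocyte markers were well above background on all 6 arrays, with a summed level, in multiples of the 75th percentile, of 5292 to 5447 in corn oil and 4949 to 5023 in anthranilic acid, and 0 of 8 were higher. For lymphocytes 4 of 4 measured markers were higher, with sums of 0.910 to 1.1 in corn oil and of 1.70 to 1.80 in anthranilic acid. For macrophages 0 of 5 were higher, with sums of 76.0 to 99.8 and of 60.1 to 89.8. Both of the 2 measured erythroid markers were higher, with sums of 156 to 295 and of 234 to 349. Endothelial, cholangiocyte and stellate markers were higher in 1 of 3, 2 of 3 and 2 of 3, and their sums overlapped between groups. The part of cell makeup in the proteasome values was not tested, and in whole liver fewer cells of a type and less RNA per cell cannot be told apart.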

How the data were processed

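Per the file headers, spot intensity was extracted with Agilent Feature Extraction, version 10.7 in the submitters' processing notes, and background-subtracted without scaling between arrays. The series-wide table that the authors deposited gives a ratio of each spot's signal to 1 value per array, close to its 75th percentile, and served as an alternative. Here log2 intensity was set against the 75th percentile of each array over non-control probes, leaving out 14 outlier spots. Tested probes (33428) had to be well above background throughout at least 1 group. Accessions were matched to the RefSeq GRCr8 gene table (27460 probes named). The brightest tested probe stood for a gene. The test was limma 3.58.1 (R 4.3.3, lmFit and eBayes, two-sided), with Benjamini-Hochberg adjustment over all tested probes. It was checked on simulated data. The 19 alternatives changed scaling, background, filter, variance model, block or arrays used. Members and lists were chosen with earlier results of these data known. Named with every array are the 2 genes of each class with the smallest p. Others are the catalytic subunits, the 3 highest and 3 lowest differences, genes without overlap and 3 pathway genes with the smallest p. Second probes, remaining members, Nfe2l1, Pomp, Adrm1, Sem1, immunoproteasome genes and the printed promoters were chosen after their values were seen.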

Additional observations from a re-analysis of the deposited data

How the results depend on the processing

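No proteasome gene and no other gene of the pathway list passed under any of the 19 alternatives run, and the smallest limma adjusted p among proteasome genes was 0.271, with normexp background correction. The median difference of the proteasome genes ran from -0.096 (quantile normalisation) to 0.017 (scaling on the array median). The 19S median was below 0 in all 19 alternatives, from -0.12 to -0.026, and the 20S core median in 15, from -0.069 to 0.051. Not all alternatives could change these values. Both filters, the replicate block and the trended robust variance kept each named difference as in the main fit, with medians of -0.077 and -0.020. The ratios deposited by the authors, set against nearly the same percentile, could hardly differ from the main fit and also gave -0.077 and -0.020. The slide block gave the same values as leaving out anthranilic acid replicate 3. The 20S beta median was -0.060 with quantile normalisation, against 0.030. Of 361 values of single named genes under alternatives, 2 turned sign, both of Psmb6. They were 0.0075 with scaling on the array median and 0.063 without anthranilic acid replicate 1. With any other array left out, Psmb6 lay between -0.11 and -0.023. The cause of the sign turns was not tested.

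With the replicate number as a block the median difference was -0.034, 0 proteasome genes passed and the smallest limma adjusted p was 0.525. Same-numbered arrays correlated in their deviations at 0.072, -0.051 and -0.043, and differently numbered arrays from -0.13 to 0.16. With 3 arrays per group these values cannot show whether same-numbered rats were handled together. Over all tested genes, 0 were called, against 8 with normexp, 4 with trended robust variance and 2 with scaling on the array median. The remaining alternatives called from 0 to 2, such as 1 with the slide block and 2 without anthranilic acid replicate 1. Naming probes by a gene name column was planned but not run, since the scanner files used here have no such column. With 3 arrays per group, the number of arrays limits the precision.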
